A study of Mus musculus with 12 samples.

Results

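The messenger RNAs of the cytosolic ribosomal proteins were followed through Wnt inhibition in mouse stomach organoids, 3-dimensional epithelial cultures grown in Matrigel from isolated gastric glands. Members were the rows of the gene table whose symbol is Rps or Rpl followed by a number, with an optional final a, x or l, together with the P-stalk genes Rplp0, Rplp1 and Rplp2 and the laminin receptor gene Rpsa. Of 83 such rows among 55421 genes, 80 held 10 or more counts over the 12 libraries and are the members. All 80 passed the low-count filter, which kept 16152 genes for testing. The rule used names and a total count, not any comparison.

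Antral organoids (from the outlet end of the stomach) and corpus organoids (from its body) were each cultured as 3 lines, numbered 8025, 8026 and 8028, and every line was sequenced after inhibition and after vehicle, which gives 4 groups of 3 libraries. Cultures were switched to inhibition 4 days after passage, and RNA was taken 24 h later. The inhibited medium held the tankyrase inhibitor XAV939, labelled at 1 mM, and Noggin, named Noggin-1 in the labels, at 100 ng/mL, and it lacked the exogenous Wnt and R-spondin. Vehicle organoids received DMSO in normal medium, of which 50% was L-WRN conditioned medium, a source of Wnt, R-spondin and Noggin. Effects of the compound and of the change of medium therefore cannot be told apart. All organoids were wild type and cultured as primary lines passaged before treatment. Growth medium held 10% serum for antrum and 20% for corpus, so region and serum cannot be told apart either. The labels give neither strain nor age nor sex.

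Ribosomes consist of a small and a large subunit, each built from ribosomal RNA and one copy of most ribosomal proteins, so cells make these proteins in matched amounts. Their messages are among the most abundant in dividing epithelium, and many begin with a C followed by a run of C and U, the terminal oligopyrimidine (TOP) tract, through which mTOR signalling and the protein Larp1 set their translation. Myc, a target of Wnt signalling in the intestine, is known to raise transcription of ribosome genes.

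Library totals ranged from 18858022 to 31656696 counts, and 3 counts, the most that a reading of 0 allows, equal 0.0948 to 0.159 CPM (counts scaled to a common library total), covering counting error only. This floor uses the raw totals, whereas the CPM of genes use totals scaled as in the tests, so the 2 scales differ slightly. The Wnt targets Axin2 and Lgr5 fell in both regions. Lgr5 measured 1.83, 1.42 and 1.25 CPM in inhibited antrum, against 46.3, 40.0 and 48.8 CPM in vehicle, and 0.206, 1.03 and 1.77 CPM in inhibited corpus, against 51.1, 51.1 and 42.4 CPM in vehicle. Inhibited corpus line 8028 stood apart from lines 8025 and 8026: Axin2 was 18.7 CPM there, against 3.71 and 5.39 CPM in the other two. Reads resembling ribosomal RNA (the 4 rows Gm26917, Lars2, AY036118 and CT010467.1) made up 17.2% of counts in line 8025 of antral vehicle, 6.87% in line 8028 of that group, and at most 3.45% elsewhere. Summed markers of epithelium were at least 7960 CPM in every library, of fibroblasts at most 2.24 CPM, of endothelium at most 0.899 CPM and of immune cells at most 51.3 CPM, so the epithelial label held.

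All but 3 of the 80 members are annotated as protein-coding: 31 of the 32 small-subunit and 46 of the 48 large-subunit genes. The exceptions, Rps4l, Rpl32l and Rpl6l, are annotated processed pseudogenes and averaged 5.12, 0.330 and 1.94 CPM, against 142 to 2710 CPM for the coding members. Rows under the count minimum were the paralogs Rpl10l and Rpl39l, which are used in male germ cells, at 0 counts each, and Rpl3l, the form made in heart and skeletal muscle, at 2 counts in all. These organoids therefore showed no detectable message for the germ-cell and muscle forms at this depth. Members lay on 19 chromosomes, with 4 on X.

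Levels were compared between genes as CPM per kb of annotated exon. On that scale coding members ranged from 54.6 (Rps15a) to 2160 (Rplp1, a P-stalk protein that recruits elongation factors), a 39.6-fold span, with a median of 330. The length counts all annotated exon bases of a gene, 6270 for Rps15a and 499 for Rplp1, so the span also depends on the annotation. In CPM these genes averaged 342 and 1080. Rplp0, the base of the stalk, averaged 1140 and Rps2, a small-subunit protein near the messenger RNA entry, 1480 CPM per kb. The order of the 77 genes was nearly the same in every library: Spearman's rho of the per-length levels over these genes was 0.992 to 0.998 for the 66 pairs of libraries. All libraries share the same lengths, which adds to this likeness. The spread of 1 member over the 12 libraries was small, with a median coefficient of variation of 6.37%, against 12.7% for the 1379 tested genes at or above the lowest coding member's level and 19.0% for all tested genes. Members also varied together. Pearson's r of a member with the sum of the other coding members over the 12 libraries had a median of 0.894 and was over 0.9 for 35 of 77. It was highest for Rps18, at 0.993, and lowest for Rps26, at 0.148, Rpl41, at 0.449, and Rpl10, at 0.504. These correlations share library scaling and the same 12 libraries and are descriptions.

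Because the TOP tract is read from the transcript's first bases, the annotated starts were searched on the transcribed strand for C followed by 4 or more letters that are each C or T. RefSeq promoters (GRCm38.p6) were matched for 58 of the 80 members. An annotated start base was itself such a C in 14 of the 58 (24.1%), against 3.01% of the 27025 genes in the table. With the search widened to 10 bases either side it was found in 36 (62.1%), against 34.4% of the table. The windows below show members whose start base is such a C (Rps6, Rps27, Rpl15, Rplp2), one with a tract only nearby (Rpl12) and those with none within 10 bases (Rps25, Rps13, Rpl41). Each runs from 40 bases before the start through the first 20 transcribed bases, with every run found within 10 bases in capitals, so a run can begin before the start. The windows of Rps25 and Rps13 do hold such runs further from the start. The search did not reach them, and they are left in lower case.
Rps6, chr4:86857348-86857407, minus strand: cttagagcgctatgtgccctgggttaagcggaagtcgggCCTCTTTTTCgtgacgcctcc
Rps27, chr3:90213629-90213688, minus strand: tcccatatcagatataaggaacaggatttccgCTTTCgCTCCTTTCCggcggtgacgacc
Rpl15, chr14:18270967-18271026, minus strand: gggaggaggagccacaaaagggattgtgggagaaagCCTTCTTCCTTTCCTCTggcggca
Rplp2, chr7:141447611-141447670, plus strand: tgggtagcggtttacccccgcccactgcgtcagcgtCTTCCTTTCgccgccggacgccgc
Rpl12, chr2:32961672-32961731, plus strand: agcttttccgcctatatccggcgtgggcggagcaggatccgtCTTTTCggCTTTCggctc
Rps25, chr9:44407674-44407733, plus strand: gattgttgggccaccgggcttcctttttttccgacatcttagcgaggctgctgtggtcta
Rps13, chr7:116334171-116334230, minus strand: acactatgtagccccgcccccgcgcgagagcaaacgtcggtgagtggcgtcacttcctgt
Rpl41, chr10:128549149-128549208, minus strand: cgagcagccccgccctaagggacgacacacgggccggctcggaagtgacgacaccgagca

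Together the 80 members took 4.71% to 6.23% of all counts. In corpus their share was 4.86%, 4.73% and 5.42% in inhibited lines 8025, 8026 and 8028, against 5.76%, 6.23% and 6.17% in vehicle. Every inhibited corpus library lay below every vehicle library, by ratios of 0.844, 0.759 and 0.878 within the lines. On the TMM scale of the tests, which sets the bulk of genes to no change, these ratios were 0.945, 0.851 and 0.966, and the groups overlapped: the members summed to 51900 ± 3030 CPM in inhibited corpus, against 56400 ± 2130 CPM in vehicle (SD, n = 3 each). In antrum the share was 4.82%, 5.23% and 4.89% in inhibited lines 8025, 8026 and 8028, against 4.71%, 6.10% and 5.82% in vehicle. The low antral vehicle value belongs to line 8025, the library in which rRNA-like genes took 17.2% of counts. With those genes left out of the totals, the antral shares were 4.90%, 5.38% and 5.06% in inhibited libraries, against 5.68%, 6.16% and 6.25% in vehicle, with no overlap. TMM-scaled sums overlapped here too, with ratios of 0.959, 0.998 and 0.883 in lines 8025, 8026 and 8028. In bulk RNA, fewer cells that make much of these messages and less message per cell cannot be told apart. The proliferation genes Top2a and Mki67 were lower after inhibition in all 3 lines of each region. Top2a measured 111, 161 and 305 CPM in inhibited corpus, against 303, 325 and 406 CPM in vehicle (log2 change -0.84, SE 0.292, edgeR adjusted p = 0.0482), and lost this call in 5 of 6 fits that left out a library, with adjusted p up to 0.156. It measured 206, 285 and 223 CPM in inhibited antrum, against 380, 437 and 345 CPM in vehicle (-0.70, edgeR adjusted p = 0.0924). Mki67 passed in neither region, at -0.62 in corpus (edgeR adjusted p = 0.0792) and -0.48 in antrum (0.170). With line as a block both genes were called lower in both regions, with adjusted p of 0.0457 or less. Within inhibited corpus the highest Top2a and the highest member share were both in line 8028. Markers of epithelial cell types also moved. Summed markers of chief cells, which secrete digestive enzymes, were 4.53 to 5.19 CPM in inhibited corpus, against 69.0 to 192 CPM in vehicle, and at most 6.75 CPM in inhibited antrum, against 33.0 to 61.5 CPM in vehicle; nearly all of it was Cblif, the gene of gastric intrinsic factor, which fell in both. The 5 epithelial markers (Epcam, Cdh1, Krt8, Krt18 and Krt19) summed to 15700 to 17000 CPM in inhibited corpus, against 7960 to 8880 CPM in vehicle. In inhibited antrum they summed to 15600 to 17800 CPM, against 8430 to 9920 CPM in vehicle. In each region 4 of the 5 were called higher, and in corpus the other was called lower. Of 8 stomach epithelium markers, 5 were called higher and 3 lower in each region. Of all tested genes 15.5% were called higher and 15.4% lower in corpus, and 16.3% and 13.4% in antrum. The part of proliferation or of cell types in the member share was not tested.

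**Figure D1:**
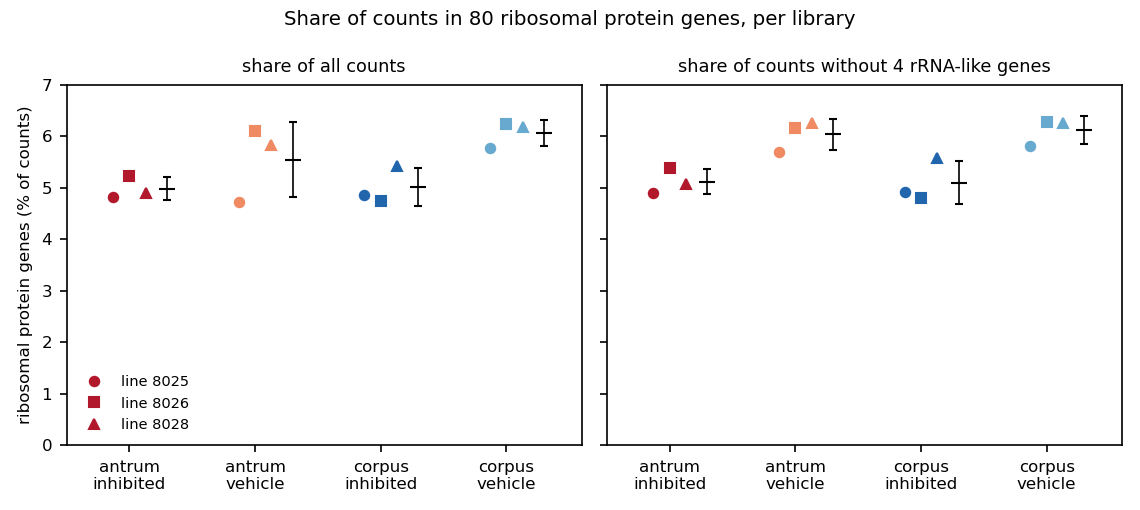
Share of counts in the 80 ribosomal protein genes (vertical axis, percent) in each library by region and treatment, over all counts on the left and without 4 rRNA-like genes on the right; marks are lines and black bars the mean ± SD of 3 libraries. Inhibited libraries lie between 4.73% and 5.42% on the left, and antral vehicle line 8025, at 4.71% there, joins the other vehicle libraries at 5.68% on the right.

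The first comparison asked how corpus organoids changed with Wnt inhibition. Libraries were scaled by TMM and tested with edgeR's quasi-likelihood method with Benjamini-Hochberg adjustment over all genes tested, at a threshold of 0.05. No member rose, where 15.5% of all tested genes did, and 11 of 80 fell, a share of 13.8%, against 15.4% of all tested genes. Ribosomal protein genes were therefore called lower about as often as genes at large. Their changes were narrow. All 77 coding members changed by less than 0.3 on the log2 scale, from -0.28 to 0.026, as did 52.8% of all tested genes and 57.1% of the 1303 other genes expressed at least as high as the lowest coding member. The median log2 change was -0.129 over members, -0.0374 over all genes and 0.166 over those 1303 other genes. Of the 80 estimates for members, 77 were negative. Members were lower in all 3 lines in 60 of 80 cases (75%), against 35% of all genes, and the inhibited libraries lay wholly below the vehicle libraries for 32 (40%), against 21.1% of all genes.

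The members called lower came from both subunits, 5 from the small and 6 from the large. Rpl22, a large-subunit protein dispensable for bulk translation in mice, had the smallest adjusted p: 282, 272 and 287 CPM in inhibited corpus, against 326, 357 and 338 CPM in vehicle. The groups did not overlap, and the log2 change was -0.28 (SE 0.0633, adjusted p = 0.00576 by edgeR). Rps25, a small-subunit protein needed by some viral internal ribosome entry sites, measured 298, 283 and 319 CPM in inhibited corpus, against 341, 363 and 357 CPM in vehicle. Its change was -0.24 (SE 0.0639, edgeR adjusted p = 0.0149). Rpl3, a core protein close to the peptidyl transferase centre, measured 1120, 1090 and 1250 CPM in inhibited corpus, against 1320, 1420 and 1390 CPM in vehicle (edgeR adjusted p = 0.0183). After inhibition Rpl22 varied little between lines, while Rps25 and Rpl3 were highest in line 8028.

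Rps27l, a paralog of Rps27 that p53 induces, measured 138, 122 and 137 CPM in inhibited corpus, against 155, 154 and 155 CPM in vehicle, a log2 change of -0.23 (SE 0.0636, edgeR adjusted p = 0.0189). Vehicle libraries were nearly equal, and line 8026 was lowest after inhibition. Rpl36a, on chromosome X, measured 228, 227 and 237 CPM in inhibited corpus, against 250, 276 and 269 CPM in vehicle (edgeR adjusted p = 0.0281). Rps13 measured 261, 259 and 303 CPM in inhibited corpus, against 309, 334 and 329 CPM in vehicle (edgeR adjusted p = 0.0297). In Rps13, inhibited line 8028 came close to the lowest vehicle library. The other called members, Rpl12 at the base of the stalk, Rps24, Rps19, which is mutated in Diamond-Blackfan anaemia, Rpl5, which carries 5S rRNA, and Rpl15, had log2 changes between -0.23 and -0.19 and adjusted p between 0.0334 and 0.0499. They are named because they complete the count. On GRCm38, with GENCODE release M21, Rpl22 (ENSMUSG00000028936) lies at chr4:152325742-152334071, Rps25 (ENSMUSG00000009927) at chr9:44407139-44410427, Rpl3 (ENSMUSG00000060036) at chr15:80077791-80091868 and Rps27l (ENSMUSG00000036781) at chr9:66946086-66949516. Counts are sums over the whole gene.

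**Figure D2:**
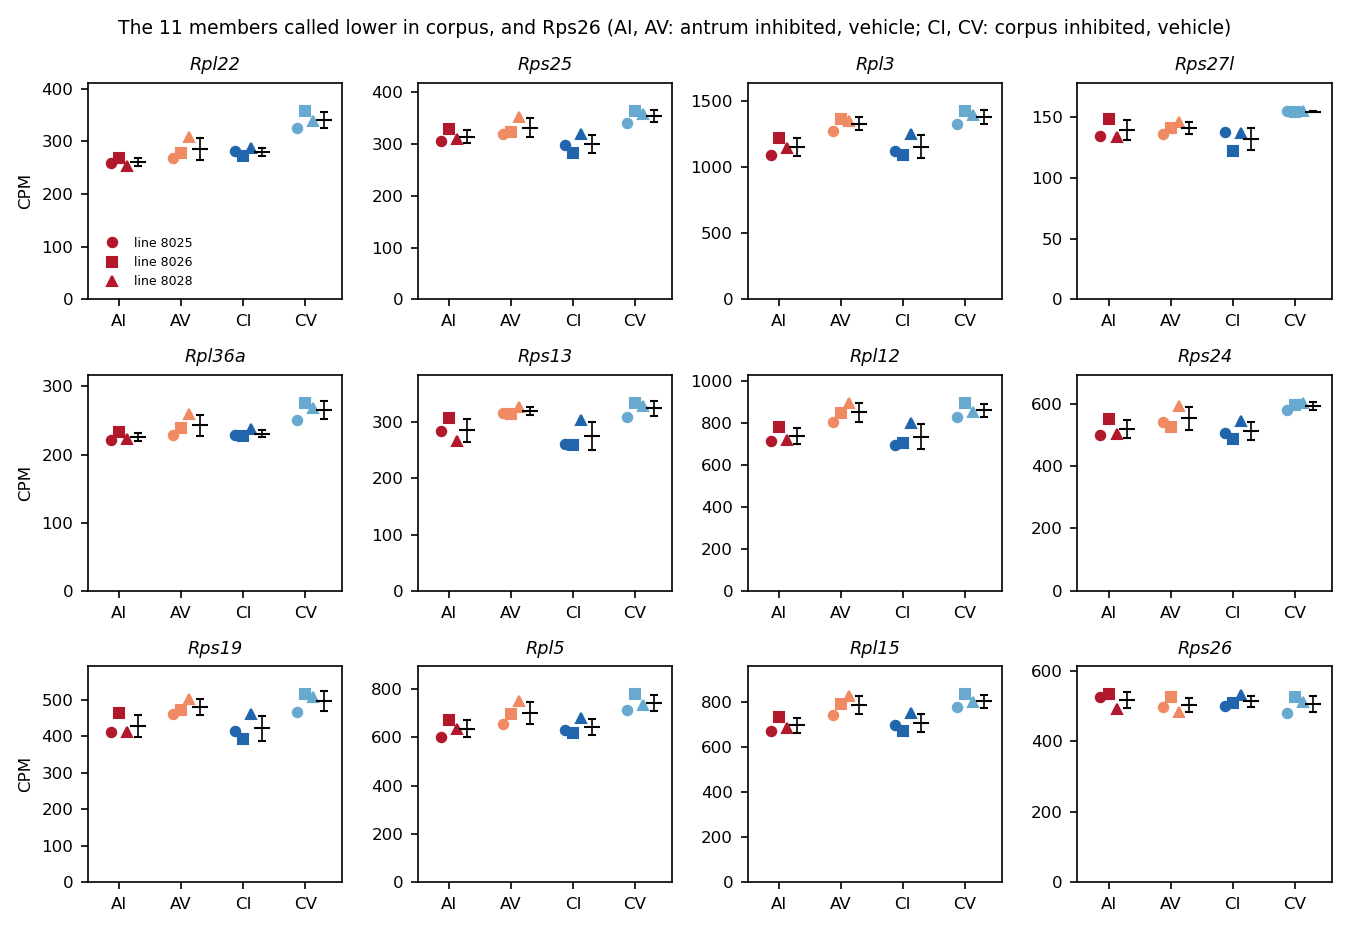
CPM (vertical axes, from 0) of the 11 members called lower in corpus, and of Rps26, in each library; marks are lines and black bars the mean ± SD of 3 libraries. In Rpl22 the inhibited corpus libraries lie at 272 to 287 CPM and the vehicle ones at 326 to 357 CPM, while the 4 groups of Rps26 overlap.

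Several members with known roles outside bulk translation gave no call in corpus. Rps6, the substrate of the S6 kinases, measured 908, 903 and 972 CPM in inhibited corpus, against 1000, 1080 and 1060 CPM in vehicle (log2 change -0.18, SE 0.0648, edgeR adjusted p = 0.0599). Its groups did not overlap, and with line as a block it was called lower (edgeR adjusted p = 0.0338). The P-stalk genes were near no change: Rplp0 at -0.061 (SE 0.0759), Rplp1 at -0.029 (SE 0.0655) and Rplp2 at -0.077 (SE 0.0662), all with adjusted p of 0.413 or more. Rpsa, which also binds laminin, was at -0.12 (SE 0.0773, edgeR adjusted p = 0.250). Other members also missed the threshold. Rpl39, which lines the exit tunnel, measured 228, 215 and 216 CPM in inhibited corpus, against 237, 269 and 249 CPM in vehicle (log2 change -0.20, SE 0.0704, edgeR adjusted p = 0.0548). Its groups did not overlap, and with the line as a block its edgeR adjusted p was 0.0408. Rps2, the most abundant member by CPM, had a log2 change of -0.042 (SE 0.0879), Rpl7 of -0.096 (SE 0.0583) and Rpl10 of -0.065 (SE 0.0585). Rps26 measured 500, 509 and 530 CPM in inhibited corpus, against 479, 526 and 511 CPM in vehicle, and Rpl41, whose product is the shortest ribosomal protein, 827, 735 and 853 CPM, against 734, 822 and 815 CPM. These and the pseudogene row Rpl6l held the only positive estimates among members, at 0.022, 0.026 and 0.15, none of them past the test.

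The number of calls rested on few libraries. Line 8026 had the lowest ratio of member shares, 0.759, and all 77 coding members lower after inhibition, against 67 in line 8025 and 66 in line 8028. Without line 8026 no member was called in corpus, without line 8025 only 1 was, and without line 8028 11 were. Calls over all genes moved too: 1141, 1431 and 3110 were lower in these fits, against 2487 with all libraries. Leaving out a single library gave 26 calls without inhibited line 8028, 3 without inhibited line 8025, 1 without inhibited line 8026, and 6, 1 and 1 without vehicle lines 8025, 8026 and 8028. Over all genes, 3507 were lower without inhibited line 8028, 1838 without inhibited line 8025 and 1679 without inhibited line 8026. Without vehicle lines 8025, 8026 and 8028 they were 1749, 1768 and 1879. Such fits tested 16345 to 16528 genes. With line as a block, which pairs each inhibited library with its own vehicle library, 19 members were called lower, against 23.7% of all genes. Rpl22 kept its call in 16 of 18 other settings and in 8 of 9 fits that left out libraries. Rps24, Rpl5 and Rpl15, at the other end, kept it in 1 of those 9. No called member but Rpl22 kept it in more than 4.

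In antrum the same comparison called no member by edgeR, against 16.3% of all tested genes called higher and 13.4% called lower. Before adjustment 5 members had p below 0.05. DESeq2 and limma-voom each called 2 members lower, against 2227 of 18048 and 2193 of 16152 genes at large. Coding members ranged from -0.205 to 0.059 on the log2 scale, again all within 0.3, where 52.1% of all genes lay. The median was -0.0779 over members and -0.0439 over all genes, and 75 of 80 estimates for members were negative. Over the 1303 other genes expressed at least as high as the lowest coding member it was 0.156. Members were lower in all 3 lines in 34 of 80 cases (42.5%), against 36.8% of all genes, and inhibited libraries lay wholly below vehicle for 12 (15%), against 24.6%. With both rRNA-rich vehicle libraries left out, no member was called either.

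Rpl3 and Rpl12 came nearest to a call in antrum. Rpl3 measured 1090, 1220 and 1140 CPM in inhibited antrum, against 1270, 1360 and 1350 CPM in vehicle, a log2 change of -0.20 (SE 0.0709, edgeR adjusted p = 0.0511). Rpl12 measured 715, 781 and 720 CPM in inhibited antrum, against 808, 849 and 898 CPM in vehicle, a log2 change of -0.21 (SE 0.0719, edgeR adjusted p = 0.0511). Neither gene's groups overlapped. With line as a block both were called lower, with adjusted p of 0.025 and 0.0321, as was Rpsa at 0.0471. These 3 were the only members so called, against 20.2% of all genes. Rpl22 measured 259, 268 and 253 CPM in inhibited antrum, against 268, 278 and 309 CPM in vehicle, where line 8026 after inhibition equalled the lowest vehicle library to 3 digits (edgeR adjusted p = 0.132). Rps27l measured 135, 149 and 134 CPM in inhibited antrum, against 136, 141 and 146 CPM in vehicle, and its groups overlapped. In line 8028, 76 of 77 coding members were lower after inhibition, against 64 in line 8025 and 33 in line 8026. Inhibited line 8026 was the highest inhibited antral library in all 77.

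**Figure D3:**
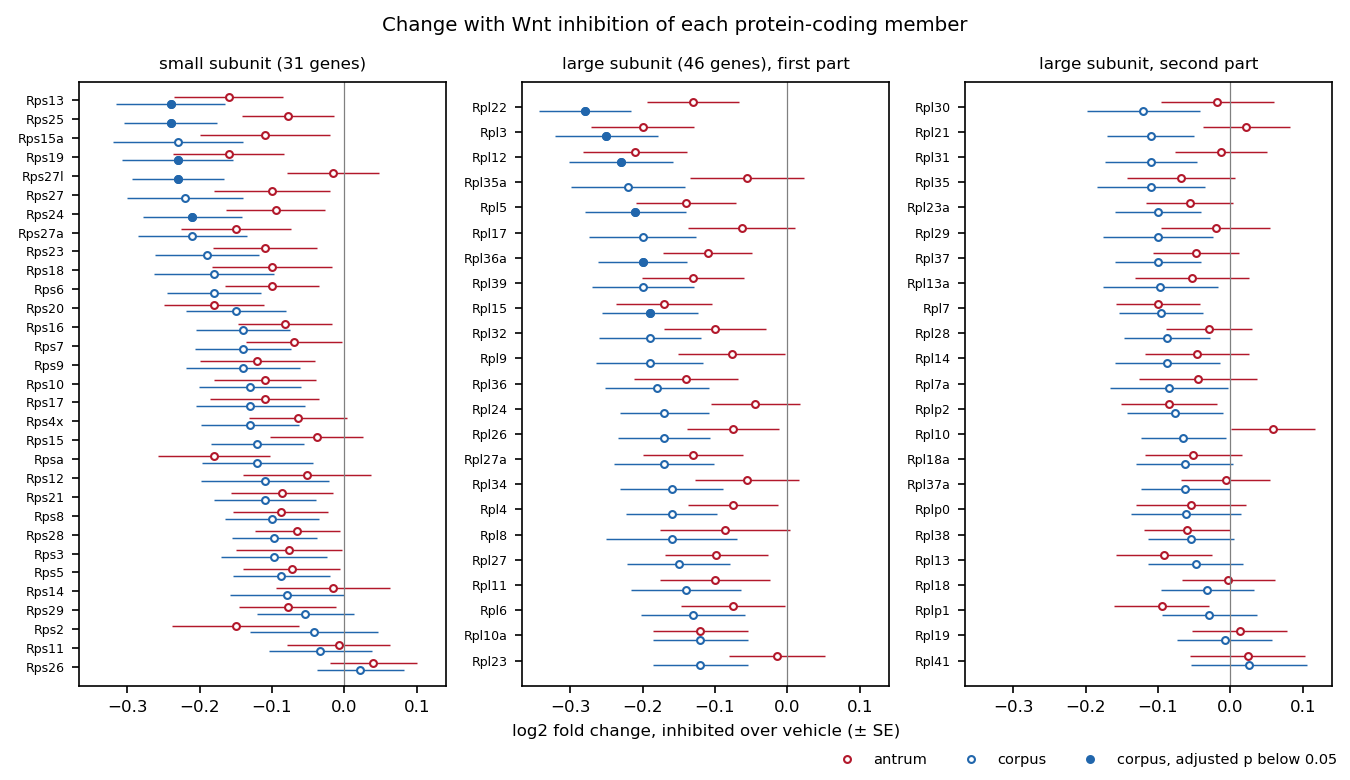
Log2 fold change of inhibited over vehicle (horizontal axis, points with SE from edgeR) for each of the 77 protein-coding members, by subunit and ordered by the corpus change; filled points passed an adjusted p of 0.05. All points lie between -0.28 and 0.059, the 11 filled ones are all from corpus, and most bars overlap those of neighbouring genes.

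The calls depended on how libraries were scaled, since nearly all members shared one small shift. Scaling by total counts moved the median of all genes to -0.193 in corpus and -0.118 in antrum. Calls over all genes were then 1340 higher and 3727 lower in corpus, against 2498 and 2487 with TMM. Under that scaling 35 members were called lower in corpus, against 23.1% of all genes, and 0 in antrum, against 13.8%. With the rRNA-like genes left out of the totals, 64 members were called lower in corpus, against 26.9% of all genes, and 53 in antrum, against 26.3%. Upper quartile scaling called 25 lower in corpus, against 17.4% of all genes, and 10 in antrum, against 17.5%. The gap between the median of members and that of all genes was -0.0935 to -0.091 in corpus and -0.035 to -0.033 in antrum over the 6 scalings. Scaling shifts all genes of a library alike, so this gap could hardly move and tests nothing. No setting called any member higher in either region.

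**Figure D4:**
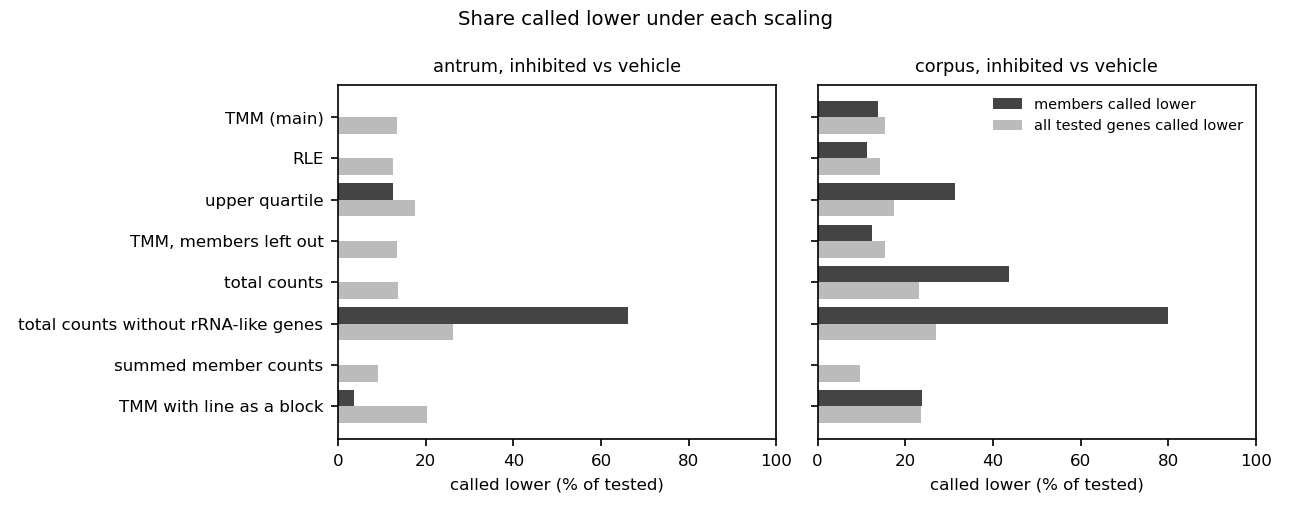
Percent called lower with Wnt inhibition (horizontal axes) among the 80 members (dark bars) and among all tested genes (light bars) under 7 scalings without a block and under TMM with line as a block. In corpus the dark bar runs from 0 of 80 with libraries scaled to the summed members to 64 of 80 with total counts without rRNA-like genes.

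When libraries were scaled to the summed members themselves, which asks whether any member departed from the rest, none was called in either region. Changes of the coding members relative to that sum ran from -0.16 (Rpl22, edgeR adjusted p = 0.0792) to 0.15 (Rpl41, edgeR adjusted p = 0.134) in corpus, and from -0.12 (Rpl3) to 0.14 (Rpl10, a late-assembling large-subunit protein, edgeR adjusted p = 0.167) in antrum. Median changes of the small and large subunits were -0.136 and -0.117 in corpus and -0.0915 and -0.0715 in antrum. Of the 10 members called lower in corpus that had a promoter entry, 7 carried the tract within 10 bases of an annotated start, as did 29 of the 48 not called. The start base itself was such a C in 1 of the 10 called and in 13 of the 48 not called. Neither pair of shares was tested.

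Between regions no member was called. In antrum against corpus under vehicle, where 0.198% of all genes passed, coding members ranged from -0.25 to 0.077, with 4 members at an unadjusted p below 0.05. Among coding members the largest difference was in Rpl22, at 268, 278 and 309 CPM in antral vehicle, against 326, 357 and 338 CPM in corpus vehicle, with no overlap and a log2 difference of -0.25 (edgeR adjusted p = 0.115). The pseudogene row Rps4l, at a low level, had a log2 difference of 1.06 (SE 0.700, edgeR adjusted p = 0.485). DESeq2 called 1 member lower in antrum there, where it called 245 of 16386 genes lower and 232 higher. Under inhibition, where 0.0619% of all genes passed, coding members ranged from -0.11 to 0.077, and 0 had an unadjusted p below 0.05. DESeq2 called none. Nor did any member pass for the difference in response, antrum minus corpus, where 0.00619% of all genes, a single gene, did: coding members ranged from -0.11 to 0.21, with Rps27l highest, 1 member had an unadjusted p below 0.05, and DESeq2 called none. The calls seen in corpus and missing in antrum are thus not shown to differ between the regions.

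The pseudogene row Rps4l followed the line more than the treatment. In corpus it measured 3.67, 3.98 and 0.940 CPM in inhibited lines 8025, 8026 and 8028, against 4.98, 5.90 and 0.366 CPM in vehicle, so both libraries of corpus line 8028 were low. In antrum it measured 4.61, 8.43 and 5.16 CPM in inhibited lines, against 5.72, 10.8 and 6.80 CPM in vehicle, with line 8026 highest both ways. Its parent Rps4x, on chromosome X, measured 919, 878 and 991 CPM in inhibited corpus, against 961, 1060 and 1040 CPM in vehicle.

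Paralog pairs were compared as the share of the pair, per exon length, that the paralog took, a measure that library scaling cannot change. Rpl36al, a copy of Rpl36a outside the naming rule, gave the clearest pattern. Its share of the pair was 55.1% to 55.9% in inhibited antrum, against 50.8% to 51.0% in vehicle, and 52.9% to 53.5% in inhibited corpus, against 46.3% to 47.0% in vehicle. In each region all inhibited lines lay above all vehicle lines. The log2 ratio of Rpl36al to Rpl36a was higher by 0.27 in antrum and 0.38 in corpus, with an exact two-sided permutation p of 0.1 in each (n = 3 per group), the smallest that 3 against 3 allows. The proteins of this pair are nearly identical, and reads that match both were divided by estimation, so the split is uncertain. Rpl36al itself did not pass in either region (log2 change 0.16 in antrum and 0.17 in corpus, edgeR adjusted p = 0.0934 and 0.0756); with line as a block it was called higher in both, with adjusted p of 0.0489 and 0.0368.

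Rpl22l1, whose message Rpl22 represses in mice, took 36.8% to 38.0% of the pair in inhibited antrum, against 33.8% to 36.0% in vehicle, and 30.1% to 34.4% in inhibited corpus, against 29.1% to 32.1% in vehicle. Within every line of both regions the share was higher after inhibition than in vehicle. Without regard to line, the groups overlapped in corpus (exact permutation p = 0.2, n = 3 per group) and not in antrum (exact permutation p = 0.1, n = 3 per group). Rpl22l1 itself was at -0.11 (SE 0.0851) in corpus and 0.0047 (SE 0.0851) in antrum. Rps27l took 37.1% to 38.5% of its pair with Rps27 in inhibited antrum, against 34.8% to 37.6% in vehicle, and 36.5% to 39.2% in inhibited corpus, against 36.3% to 38.5% in vehicle. Those ranges overlapped in both regions, and Rps27 itself was at -0.22 (SE 0.0804, edgeR adjusted p = 0.0542) in corpus; with line as a block it was called lower (edgeR adjusted p = 0.0267).

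**Figure D5:**
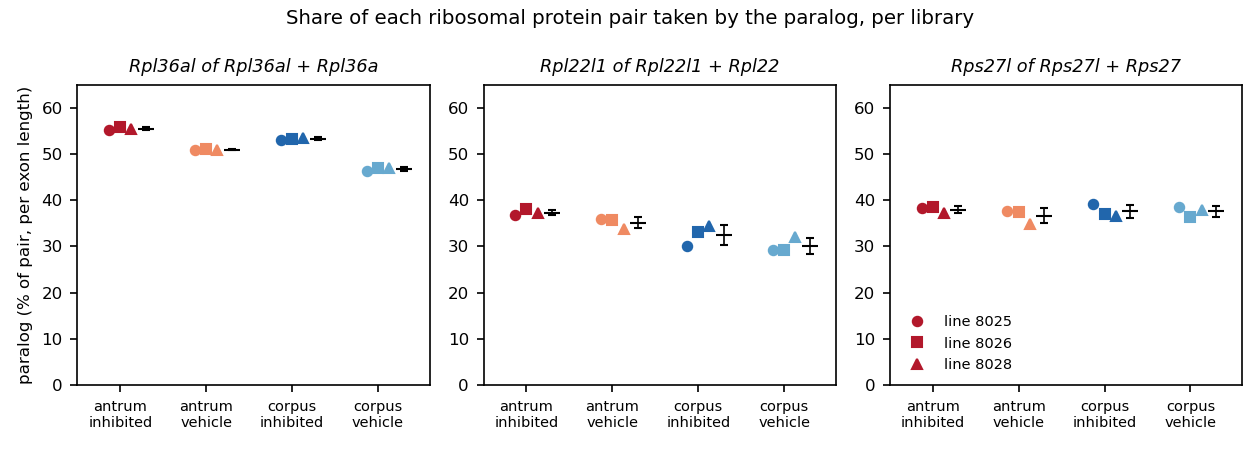
Share of each ribosomal protein pair taken by the paralog (vertical axes, percent of the pair per exon length) in each library; marks are lines and black bars the mean ± SD of 3 libraries. For Rpl36al the inhibited libraries lie above the vehicle libraries in both regions, at 55.1% to 55.9% against 50.8% to 51.0% in antrum, while the ranges of Rps27l overlap.

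Ribosomal protein genes have many processed copies in the genome, and 307 rows named as pseudogenes of members held 659502 counts, 3.67% of the counts of both. For 10 members the copies held over 10% of the joint counts, led by Rpl31 at 27.5%, Rpl36 at 19.2%, Rpl17 at 18.2% and Rps15a at 17.4%. Among the called members, Rps13 was so affected, at 13.3%. With these rows added to their parents, 7 members in place of 11 were called lower in corpus and none in antrum. Of the 16011 genes then tested, 2348 were called lower in corpus and 2045 in antrum.

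Of 8 ribosomal proteins or relatives outside the naming rule, none passed in either region. They include Fau, which encodes a small-subunit protein fused to a ubiquitin-like protein, and Rack1, a scaffold on the small subunit. Rack1 measured 986, 984 and 1120 CPM in inhibited corpus, against 1130, 1160 and 1190 CPM in vehicle (log2 change -0.17, SE 0.0685, edgeR adjusted p = 0.0791). Fau had a log2 change of -0.0064 (SE 0.0733) in corpus. With line as a block 3 of these 8 were called lower and 1 higher in corpus, and 1 lower and 1 higher in antrum. Of all genes, 20.6% were called higher with the block in antrum and 19.8% in corpus.

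Of 20 translation factors and other messages that carry TOP tracts, 7 fell and 0 rose in corpus, with a median log2 change of -0.147, where 15.4% of all tested genes fell and 15.5% rose. In antrum 2 fell and 1 rose (2 with line as a block), with a median of -0.064, where 13.4% of all genes fell and 16.3% rose. Hnrnpa1, an RNA-binding protein, and Npm1, a nucleolar chaperone of ribosome assembly, changed most. Npm1 measured 529, 581 and 896 CPM in inhibited corpus, against 985, 1010 and 1130 CPM in vehicle (log2 change -0.64, SE 0.162, edgeR adjusted p = 0.0114), and 657, 762 and 671 CPM in inhibited antrum, against 974, 1070 and 988 CPM in vehicle (-0.53, SE 0.161, edgeR adjusted p = 0.0277). Hnrnpa1 changed by -0.61 in corpus and -0.52 in antrum (SE 0.150 each). Eif3m, a subunit of initiation factor eIF3, changed by -0.22 in corpus (SE 0.0568, edgeR adjusted p = 0.0115), with 100, 99.3 and 99.2 CPM in inhibited libraries, against 112, 118 and 118 CPM in vehicle.

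Of 26 other initiation factors, none fell and 1 rose in each region. Of all tested genes 15.4% fell and 15.5% rose in corpus, and 13.4% fell and 16.3% rose in antrum. With line as a block 2 factors fell and 3 rose in corpus and 2 rose in antrum. The block called 23.7% of all genes lower and 19.8% higher in corpus, and 20.6% higher in antrum. The factor that rose without the block, Eif1, which guards start codon choice, measured 355, 374 and 375 CPM in inhibited corpus, against 310, 308 and 347 CPM in vehicle (log2 change 0.20, SE 0.0643, edgeR adjusted p = 0.0390). Of 78 mitochondrial ribosomal proteins, which belong to a separate ribosome, 5 fell and 4 rose in corpus and 3 fell and 3 rose in antrum, with medians of -0.0044 and 0.0159, well under the shares of all genes called. With line as a block 12 of the 78 fell in corpus, where 23.7% of all genes fell. Mrpl16 had the largest of these changes, at 21.1, 22.2 and 29.0 CPM in inhibited corpus, against 46.3, 51.4 and 43.5 CPM in vehicle (-0.97, SE 0.114), larger than in any coding member. Mrpl43 rose by 0.29 (SE 0.0626) and Mrpl13 fell, at -0.35 (SE 0.0915), in corpus.

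Among 17 genes that control ribosome production or TOP messages, 3 fell and 3 rose in each region. This is near the shares of all tested genes, of which 15.4% fell and 15.5% rose in corpus. In antrum 13.4% of all tested genes fell and 16.3% rose. The genes of this list that fell were the Myc family in both regions. Myc measured 64.9, 70.0 and 96.6 CPM in inhibited corpus, against 111, 111 and 124 CPM in vehicle (log2 change -0.58, SE 0.152, edgeR adjusted p = 0.0138), and 73.7, 85.8 and 71.4 CPM in inhibited antrum, against 124, 133 and 97.5 CPM in vehicle (-0.62, edgeR adjusted p = 0.0103). Mycn changed by -0.94 and Mycl by -0.93 in corpus. Larp1, the TOP-binding repressor, measured 255, 290 and 312 CPM in inhibited corpus, against 227, 221 and 257 CPM in vehicle, where inhibited line 8025 lay just under the highest vehicle library (0.28, SE 0.0860, edgeR adjusted p = 0.0276). Larp4b rose by 0.32 (SE 0.0716). Eif4ebp1, which holds back cap-dependent initiation when mTOR is low, measured 193, 203 and 117 CPM in inhibited corpus, against 112, 123 and 114 CPM in vehicle (0.56, SE 0.162, edgeR adjusted p = 0.0231), with inhibited line 8028 inside the vehicle range. In antrum the third riser beside Larp4b and Rps6kb2 was Tsc2, a brake on mTOR, at 0.26 (SE 0.0708, edgeR adjusted p = 0.0169).

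Leaving out 1 library at a time separated these named genes. In corpus Mycn, Mycl, Larp4b, Hnrnpa1, Mrpl16 and Mrpl43 kept their calls in all 6 such fits. Npm1 lost its call without inhibited line 8026 (edgeR adjusted p = 0.0521) and Eif3m without vehicle line 8028 (0.0649). Myc lost its call without inhibited line 8025 or 8026 or vehicle line 8028 (adjusted p up to 0.0626). Eif1 and Larp1 lost theirs without inhibited line 8026 or vehicle line 8025 or 8026 (up to 0.135 and 0.103). Eif4ebp1 lost its call without inhibited line 8025 or 8026 or vehicle line 8025 or 8028 (up to 0.0936), and Mrpl13 without inhibited line 8025 or 8026 or vehicle line 8026 or 8028 (up to 0.0676). In antrum Myc, Mycn, Mycl and Larp4b kept their calls in all 6 fits. Npm1 kept its call only without inhibited line 8026 (adjusted p up to 0.0958 otherwise), Hnrnpa1 only without inhibited line 8026 or vehicle line 8028 (up to 0.0848), and Eif1 lost its call without inhibited line 8026 (0.0526).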

How the data were processed

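RNA selected for polyA was sequenced from 12 organoid libraries, per the labels' protocols. The authors deposited 1 table of expected counts per gene, already whole numbers; tools named in the submitters' processing notes are RSEM 1.3.3, STAR 2.7.8a, FastQC 0.11.8 and cutadapt 2.3, with build GRCm38. Neither annotation release nor strandedness is given in the sources used here. Of 55426 rows, 5 that are not mouse genes were left out. The whole table was tested with edgeR 4.0.16 (R 4.3.3; TMM, filterByExpr, robust quasi-likelihood, 4 group means, 8 residual degrees of freedom), two-sided, with Benjamini-Hochberg adjustment at 0.05. The test was checked on simulated data, where every planted change was larger than that of any coding member. That check therefore does not cover changes as small as theirs. CPM use TMM-scaled totals. Nothing says that the lines came from separate mice beyond being called independent, so p-values measure the spread between these lines.

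Within a region, line numbers pair inhibited with vehicle libraries, because each line received both treatments: deviations from group means correlated at 0.234 to 0.617 in the 6 pairs. Across regions the deviations of libraries sharing the number 8025 correlated at 0.388 in inhibited and 0.199 in vehicle. For numbers 8026 and 8028 the correlations were -0.186 to -0.0531. No 2 libraries of a group agreed within sampling noise. Named members were up to 6 called each way per treatment comparison by adjusted p, fixed genes (stalk, Rpsa, Rps6, Rpl22, paralog pairs) and the 3 highest and lowest by CPM; Rps26, Rpl41, Rps18 and the remaining called genes were named after their values were seen. Of each list up to 3 called genes and fixed ones were named; Tsc2 and Rps6kb2 were named after their values were seen, and 1 fixed gene is not reported here. Members and lists were chosen with earlier results of these data known. Alternatives were other scalings and filters, DESeq2 1.42.0, limma-voom (limma 3.58.1), a line block, libraries left out and pseudogene rows merged. Promoters and positions came from RefSeq and GENCODE M21; protein sequences were not used here.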

Additional observations from a re-analysis of the deposited data

How the results depend on the processing

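Counts of members called lower moved by more than 1.5 times under most settings, always within the same direction. In corpus, against 11, they were 25 with upper quartile scaling, 35 with total counts, 64 with total counts without rRNA-like genes, 0 with scaling to the summed members, 5 without a low-count filter, 18 with at least 1 CPM in 3 libraries, 7 with pseudogene rows merged and 1 with only the groups compared. Over all genes, 2044 of 28593 were called lower without a low-count filter and 2435 of 14050 with the CPM filter. They were 2348 of 16011 with pseudogene rows merged and 1620 of 15576 with only the groups compared. For members again: With the replicate block 19 members were called lower in corpus. With the block and RLE, upper quartile, total-count, total-count without rRNA-like genes or summed-member scaling 17, 31, 62, 74 and 0 were. These 5 combinations were chosen after seeing the data. Of 16152 tested genes, 3631, 4165, 5558, 5969 and 2367 were called lower in corpus under them. In antrum, against 0, the members called lower were 10 with upper quartile scaling, 53 with total counts without rRNA-like genes, 2 each with at least 1 CPM in 3 libraries, DESeq2 and limma-voom, 3 with the block, and 2, 14, 5 and 71 with the block and RLE, upper quartile, total-count or total-count without rRNA-like genes. Under those last block combinations 3103, 4162, 3855 and 5808 of 16152 genes were called lower in antrum. With the CPM filter 2143 of 14050 genes were. Leaving out libraries gave 0 to 26 members in corpus and 0 to 1 in antrum. The antral call came without inhibited line 8026, where 1549 of 16497 genes were called lower. DESeq2 called 1 member lower between regions in vehicle, against 245 of 16386 genes. No other count between regions or in response left 0. The block changed no call there. Smaller filters change the number of genes adjusted over, and fewer samples leave fewer degrees of freedom; the cause of other shifts was not tested. Rpl22l1 in antrum turned to -0.152 with the block and total counts without rRNA-like genes. Of the values of named genes under these settings, 2027 kept their side of the threshold, 231 lost a call, 176 gained one, and 92 of uncalled genes changed sign. Median changes of members kept within the spread between lines in 47 instances and moved beyond it in 8, from -0.288 to -0.0103.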
